A study of Mus musculus with 40 samples.

Results

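The 9 genes described here encode chemokine and chemoattractant receptors of myeloid cells, *Ccr1*, *Ccr2*, *Ccr7*, *Ccrl2*, *Cxcr4*, *Cx3cr1*, *C5ar1*, *Fpr1* and *Fpr2*, and were chosen by name among the 27179 genes of the expression table. All 9 were present in the table. Poly(A) RNA was sequenced from bone marrow-derived macrophages (BMDMs), which are bone marrow cells matured in culture with the growth factor M-CSF supplied by L-cell conditioned medium. The cells came from adult male mice on a mixed C57BL/6J and 129 background, 4 wildtype (WT) and 4 CPEB4-KO (*Cpeb4*-/-, lacking the gene in the whole animal), and were left untreated (0 hr) or received 10 ng/ml lipopolysaccharide (LPS) for 1, 3, 6 or 9 hr. Each of the 8 mice gave 1 library at each time, so the 40 libraries formed 10 groups of 4. WT mice are numbered 25, 69, 87 and 88 and *Cpeb4*-/- mice 2, 3, 55 and 62, and no cage held both genotypes, so cage and genotype cannot be told apart.

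These receptors sit in the plasma membrane, and most of them couple to Gi proteins and steer cells along gradients of chemokines, complement fragments or bacterial formyl peptides. Macrophages that sense LPS through Toll-like receptor 4 remodel this set of receptors, which alters the signals the cell can follow. CPEB4 is an RNA-binding protein that recognises cytoplasmic polyadenylation elements (CPEs), U-rich motifs in the 3′ UTR of mRNAs, and the comparison of genotypes asks which mRNAs differ in level when it is missing.

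Values are regularized log (rlog) values, a log2 scale corrected for library size and shrunken where counts are low, so differences are log2 differences that understate the change of weakly expressed genes. They are not corrected for gene length, and levels are therefore not compared between genes. Replicate libraries correlated at r of 0.992 to 0.998 across 13103 genes. Among these, 3 libraries raised the number of genes called between genotypes when left out, WT mouse 69 at 1 hr (from 251 to 2440), WT mouse 88 at 3 hr (481 to 2584) and *Cpeb4*-/- mouse 2 at 9 hr (1029 to 4575). *Cpeb4* itself was lower in *Cpeb4*-/- libraries without overlap at 6 hr only (WT 10.09 to 10.67, *Cpeb4*-/- 8.74 to 9.66). The groups overlapped at the other times, and at 1 hr the *Cpeb4*-/- mean was the higher one (9.01 against 8.64 in WT). *Cpeb4* signal in *Cpeb4*-/- libraries rose after LPS too, from a mean of 7.48 at 0 hr to 9.21 at 3 hr. The genotypes are taken as labelled. The summed level of 8 macrophage markers lay between 18.98 and 19.49 in WT and between 18.65 and 19.14 in *Cpeb4*-/- libraries and was lower in *Cpeb4*-/- at all 5 times without overlap. This sum is carried mainly by *Lyz2* (difference −0.59 to −0.38 over the 5 times). *Cd14*, *Fcgr1* and *Cd68* had lower means in *Cpeb4*-/- at all 5 times, *Itgam* had higher ones (0.11 to 0.30), and *Adgre1*, *Csf1r* and *Mertk* differed in both directions. The summed level of 3 NK cell markers did not exceed 3.68 and was higher in *Cpeb4*-/- without overlap up to 3 hr. Of these 3, *Ncr1* did not exceed 0.25 and *Gzma* −2.16 in any library, while *Klrb1c* reached 3.585. The neutrophil markers *Ly6g*, *Mpo* and *Elane*, the T cell markers *Cd3e*, *Cd3d* and *Cd3g* and the B cell markers *Cd79a*, *Ms4a1* and *Pax5* stayed under the filter on low values, the log2 of a count of 5 (2.32), in every library. Other genes of the same lists were above it in every library, *S100a8*, *S100a9* and *Csf3r* for neutrophils, *Lck* and *Cd28* for T cells and *Cd79b* for B cells.

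LPS moved most of these receptors in WT BMDMs, in opposite directions, and most genes changed too (10473 of 13103 called at 6 hr). At 6 hr 5 of the 9 had risen and 3 had fallen from untreated cells (limma across all genes, adjusted p under 0.05), against 39.7% of all tested genes that rose and 40.2% that fell. The counts were the same at 9 hr (37.0% and 36.6% of all genes) and at 3 hr (33.5% and 36.4%). At 1 hr 6 receptors had risen and none had fallen, against 19.4% and 18.3% of all genes. The median absolute change of the 9 receptors at 6 hr was 2.08, and that of all tested genes was 0.54. Each mean change had the same sign in *Cpeb4*-/- as in WT in 33 of the 36 pairs of receptor and time.

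**Figure D1:**
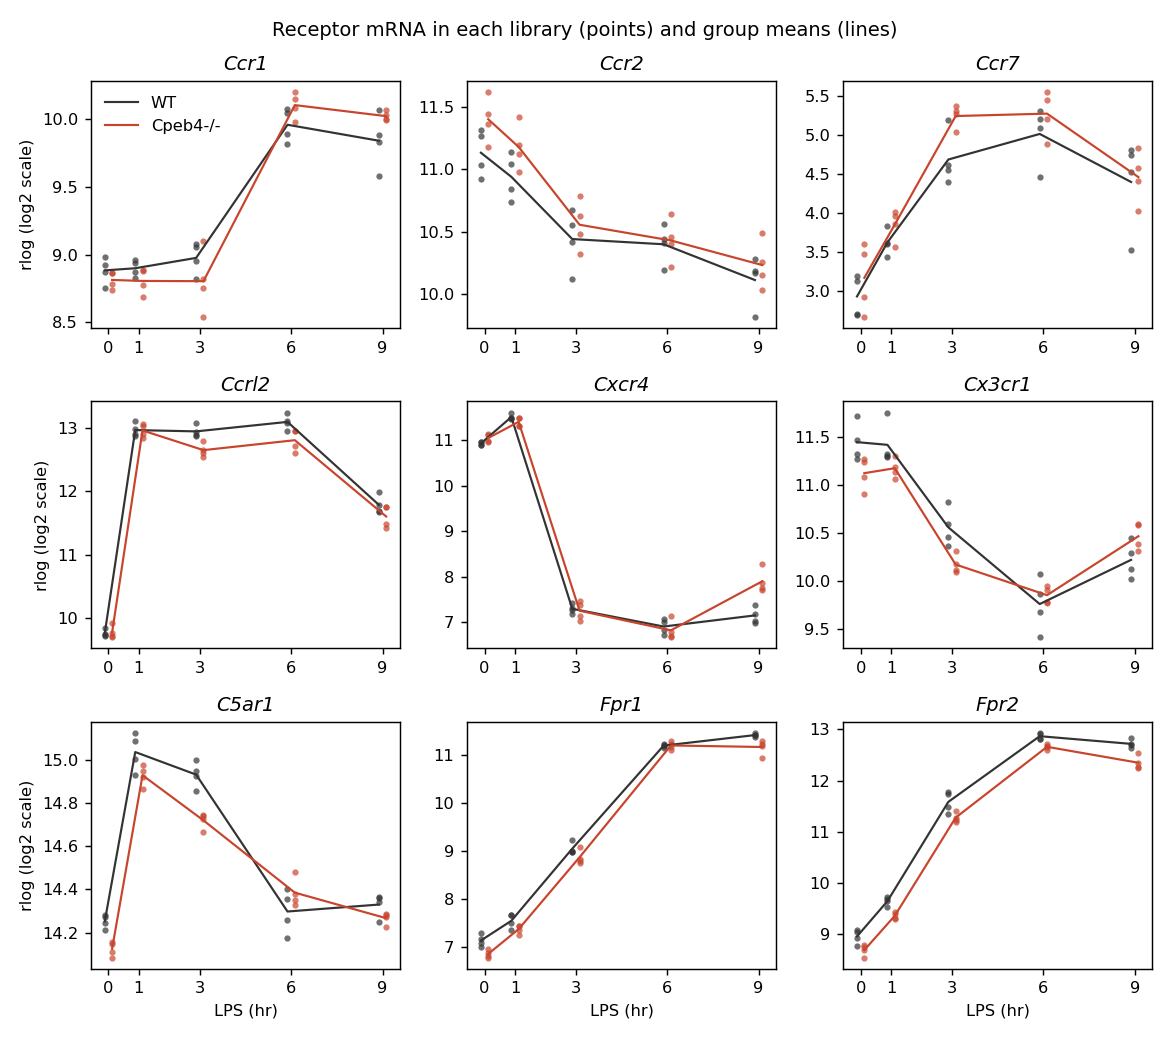
Receptor mRNA as rlog (log2 scale, vertical axis, with its own range in each panel) against hours of LPS, with 1 point per library, 4 per genotype and time, and lines through the group means. *Cxcr4*, *Cx3cr1* and *Ccr2* fell, *Fpr1*, *Fpr2*, *Ccr1*, *Ccr7* and *Ccrl2* rose, and the *Cxcr4* libraries of the genotypes part at 9 hr, when WT reached 7.39 at most and *Cpeb4*-/- 7.72 at least.

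Between the genotypes, no receptor differed in untreated cells in limma at an adjusted p under 0.05 (6 had an unadjusted p under 0.05), when 1.31% of all genes did. At 1 hr *Fpr2* alone was lower in *Cpeb4*-/- (1.91% of all genes differed), at 3 hr *Ccrl2*, *Cx3cr1* and *C5ar1* were lower (3.68%), and at 6 hr *Ccrl2* and *Fpr2* were lower (16.3%). At 9 hr *Fpr2* was lower and *Cxcr4* was higher (7.91%). The groups did not overlap in any of these 8 differences, 7 of them toward lower levels. Groups that do not overlap must differ with the same sign in both batches, so the batches add no separate check of direction. Of the 45 pairs of receptor and time 11 did not overlap, and in order of time 2, 1, 3, 2 and 3 receptors were separated, against 10.5%, 15.7%, 13.6%, 20.2% and 16.9% of all genes. In order of time, the median absolute difference of the 9 receptors was 0.24, 0.17, 0.21, 0.09 and 0.18, and that of all tested genes was 0.09, 0.16, 0.11, 0.10 and 0.12. In bulk RNA, fewer cells that carry a receptor and less receptor mRNA per cell cannot be told apart.

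**Figure D2:**
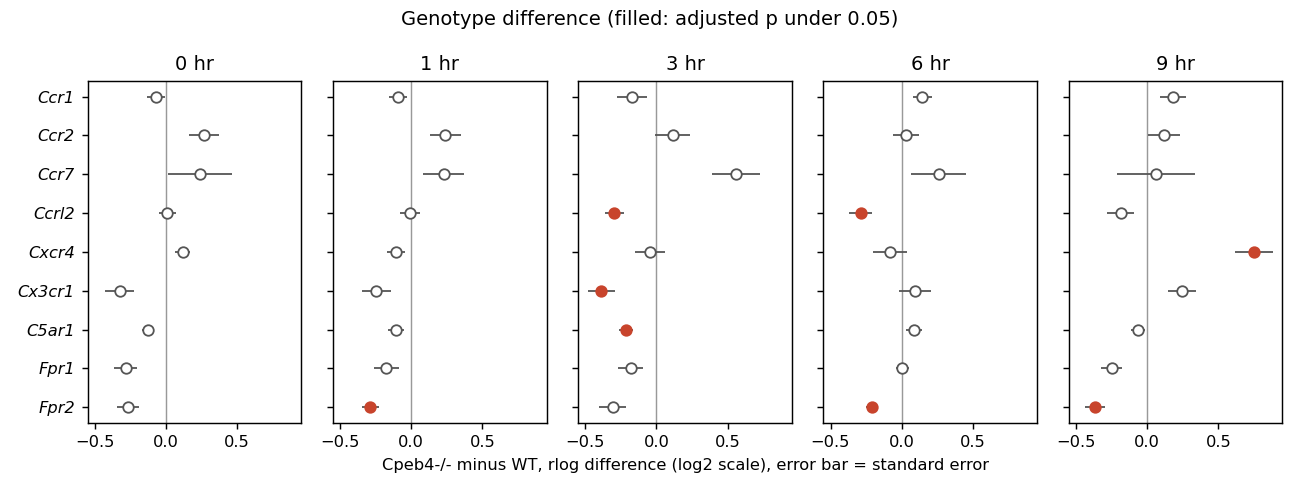
Difference in rlog (*Cpeb4*-/- minus WT, horizontal axis, log2 scale) with its standard error for each receptor at each time, from 4 libraries per genotype; filled points have an adjusted p under 0.05. Most filled points lie left of 0, and *Cxcr4* at 9 hr, at 0.75, is the filled point to the right.

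*Cxcr4* encodes the receptor of CXCL12, which retains leukocytes in bone marrow and tissue, and it is a known target gene of hypoxia-inducible factor. It lies at chr1:128588199-128592293 of mm10 on the minus strand. Untreated WT libraries held 10.89, 10.97, 10.91 and 10.96, and 1 hr of LPS raised them to between 11.46 and 11.61. All 4 WT mice then lost most of this mRNA by 3 hr, when the libraries lay between 7.18 and 7.43. Relative to untreated cells the change was −3.63 after 3 hr, −4.02 after 6 hr and −3.78 after 9 hr (standard error 0.11 each), which at 6 hr is 16.3-fold lower on the rlog scale (limma adjusted p = 5.74e-28).

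The genotypes tracked each other through this fall and separated when it ended. At 6 hr *Cxcr4* was at 6.84, 7.08, 6.71 and 7.00 in WT and at 6.67, 7.14, 6.69 and 6.78 in *Cpeb4*-/-, and the groups overlapped (difference −0.08, standard error 0.12, adjusted p = 0.68). By 9 hr the WT libraries of mice 25, 69, 87 and 88 held 7.03, 7.19, 6.99 and 7.39. Those of *Cpeb4*-/- mice 2, 3, 55 and 62 held 8.27, 7.75, 7.72 and 7.87, all above every WT library, with mouse 2 highest. The difference at 9 hr was 0.75 (standard error 0.13), a 1.68-fold higher level (limma adjusted p = 0.00916, two-sided exact permutation test over the 4 and 4 libraries p = 0.0286, the smallest p these numbers allow). It was 0.60 in batch 1 and 0.90 in batch 2 and passed the threshold under all 16 alternatives of the fit (adjusted p from 2.7e-06 to 0.0446), with 0.63 as the value without mouse 2.

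Within each mouse, *Cxcr4* rose from 6 to 9 hr by 0.24 ± 0.12 (SD, n = 4) in WT and by 1.08 ± 0.41 in *Cpeb4*-/-. Against the mouse's own untreated library, the 9 hr change averaged −3.78 ± 0.15 for WT (range −3.91 to −3.57) and −3.15 ± 0.22 for *Cpeb4*-/- (range −3.37 to −2.86), so the groups did not overlap. Here and for the receptors below, the share of all genes whose within-mouse changes do not overlap was not computed. The *Cxcr4* response at 9 hr differed by 0.63 between the genotypes (standard error 0.15, limma interaction adjusted p = 0.0198). *Cxcr4* was the only receptor past the threshold in this test, which does not pair the libraries of a mouse and which 1.76% of all genes passed at 9 hr. At 1, 3 and 6 hr none of the 9 receptors passed it, against 0.00763%, 0.206% and 2.94% of all genes, and the unadjusted limma p was under 0.05 for none at 1 hr, for *Ccrl2* at 3 hr and for *Ccrl2*, *Cx3cr1*, *C5ar1* and *Fpr1* at 6 hr. Leaving out WT mouse 25, 69 or 87 or *Cpeb4*-/- mouse 2 or 62 moved the adjusted p of the *Cxcr4* interaction to between 0.0565 and 0.104. With the mouse as a replicate block, the limma interaction adjusted p at 9 hr was 0.00234 for *Cxcr4*. *Cx3cr1* passed that test too (0.000263), as did 4.99% of all genes.

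**Figure D3:**
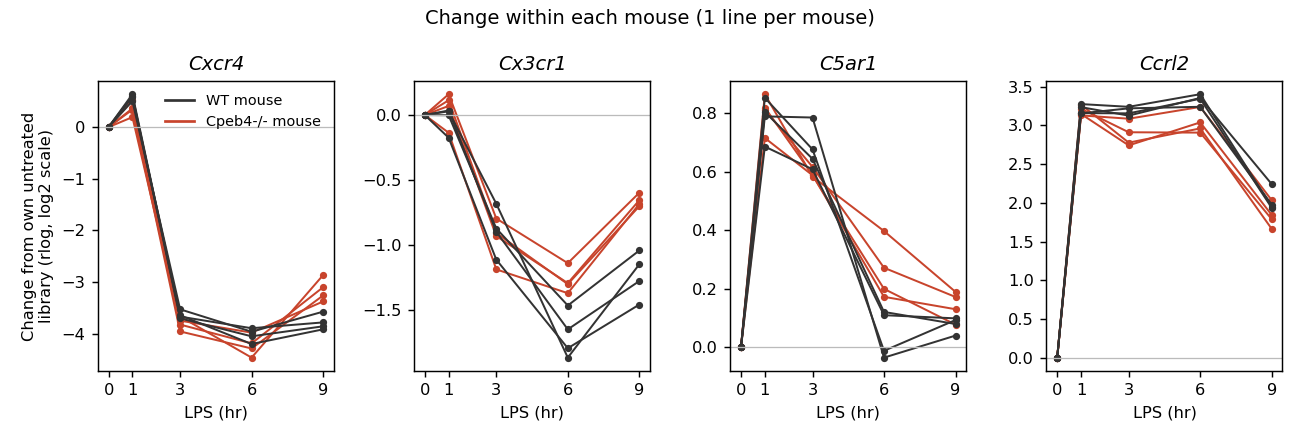
Change in rlog from each mouse's own untreated library (vertical axis, log2 scale, with its own range in each panel) against hours of LPS, with 1 line per mouse for 4 WT and 4 *Cpeb4*-/- mice. At 9 hr the *Cxcr4* lines of *Cpeb4*-/- mice end between −3.37 and −2.86 and those of WT mice between −3.91 and −3.57, and the *Cx3cr1* lines end between −0.70 and −0.60 and between −1.45 and −1.04.

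The annotated 3′ UTR of *Cxcr4* in GENCODE M21 (644 bases) held 2 CPEs, searched as TTTTAT or TTTTAAT on the sense strand, and 1 ATTTA, the core of AU-rich elements that mark unstable mRNAs. A CPE was present in the longest 3′ UTR of 60.3% of 11939 expressed genes, an ATTTA in 67.9% and both in 51.3%. Among the receptors 7 of 9 held a CPE, 6 an ATTTA and 6 both. The sites of *Cxcr4* and the neighbouring pair of CPEs of *Ccrl2* are shown, since these mRNAs carried opposite differences between the genotypes, with motif letters in capitals and T for U:
*Cxcr4* first CPE, chr1:128588771-128588800: gataaagaacttTTTTATgttacacatttt
*Cxcr4* second CPE, chr1:128588713-128588742: acagttttttttTTTTATtgactgttggga
*Cxcr4* ATTTA, chr1:128588659-128588688: aggtttgacttaATTTAtataaatactttt
*Ccrl2* CPE pair, chr9:111055297-111055326: ctcttcacattgTTTTATgccatTTTTATa
Both genes lie on the minus strand of mm10. *Fpr1* and *Fpr2*, whose annotated 3′ UTRs are 160 and 54 bases long, held neither motif. A motif match is not a measured binding site.

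*Cx3cr1* and *Ccr2* encode the receptors of fractalkine and of CCL2, which mark monocytes and their tissue descendants, and both fell after LPS. *Cx3cr1* (chr9:119901616-120069879) was at 11.47, 11.72, 11.33 and 11.27 in untreated WT libraries and at 9.68, 10.08, 9.86 and 9.41 at 6 hr. Every WT library at 6 hr was below every untreated one, and the mean fell by 1.69 on the log2 scale (standard error 0.12, limma adjusted p = 3e-15). The gene shares 47 of 4444 stretches of 50 bases with other annotated transcripts, and part of its exons overlap *Gm33858* on the other strand.

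*Cx3cr1* had a lower mean in *Cpeb4*-/- at 0, 1 and 3 hr and passed the threshold only at 3 hr. At 0 and 1 hr the groups overlapped (differences −0.32 and −0.24, limma adjusted p = 0.154 and 0.131). At 3 hr the *Cpeb4*-/- libraries held 10.11, 10.09, 10.17 and 10.31 and the WT libraries 10.36, 10.82, 10.46 and 10.59. The groups did not overlap, and the difference was −0.39 (standard error 0.09, limma adjusted p = 0.0479, exact p = 0.0286), −0.28 in batch 1 and −0.50 in batch 2. Leaving out any 1 mouse other than WT mouse 88 moved this adjusted p to between 0.053 and 0.155. At 9 hr the order of the means was the opposite, with WT at 10.01 to 10.45 and *Cpeb4*-/- at 10.31 to 10.59, which overlap. The mean difference was 0.25 (limma adjusted p = 0.142), made up of 0.52 for batch 1 and −0.02 for batch 2. Without *Cpeb4*-/- mouse 2 the limma adjusted p was 0.0293, in a fit that called 4575 genes in place of 1029.

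Within mice *Cx3cr1* changed over 9 hr by −1.23 ± 0.18 (SD, n = 4) for WT and by −0.66 ± 0.05 for *Cpeb4*-/-. No *Cpeb4*-/- mouse fell as far as any WT mouse, and the responses differed by 0.57 (standard error 0.17, limma interaction adjusted p = 0.0756, and 0.0296 without WT mouse 69). With the mouse as a replicate block its adjusted p was 0.000263 at 9 hr and 0.00522 at 6 hr, in tests that 4.99% and 7.88% of all genes passed.

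For *Ccr2* (chr9:124101950-124113557), the untreated WT libraries lay between 10.92 and 11.32. The libraries at 9 hr lay between 9.82 and 10.28, below all untreated ones, a fall of 1.02 (the change was −1.02, standard error 0.13, limma adjusted p = 7.03e-09). The change at 1 hr was −0.19 and did not pass the threshold (adjusted p = 0.25), but did with the replicate block (adjusted p = 0.000559, when 20.8% of all genes fell). Untreated *Ccr2* averaged 11.13 ± 0.19 (SD, n = 4) for WT and 11.40 ± 0.18 for *Cpeb4*-/- cells, and the groups overlapped at all 5 times. Its fall at 6 hr was larger in *Cpeb4*-/- by 0.24 (−0.97 against −0.74, interaction adjusted p = 0.581 without and 0.0159 with the replicate block).

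*Ccrl2*, *Ccr1* and *Ccr7* rose, each with its own timing. *Ccrl2* encodes an atypical receptor that binds chemerin and presents it to neighbouring cells rather than signalling through Gi, and it is a known early LPS gene. It lies at chr9:111054486-111057519. Untreated WT libraries held 9.71, 9.75, 9.74 and 9.84, and after 1 hr they held 12.87, 12.99, 12.90 and 13.12, a 9.24-fold rise (change 3.21, standard error 0.08, limma adjusted p = 2.35e-27). The level stayed there through 6 hr and was 11.79 ± 0.15 (SD, n = 4) at 9 hr.

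*Ccrl2* was induced to the same range in both genotypes at 1 hr, 12.85 to 13.06 in *Cpeb4*-/-, and was lower in *Cpeb4*-/- at 3 and 6 hr, while the difference of −0.18 at 9 hr did not pass the threshold (groups overlapping, limma adjusted p = 0.24). At 3 hr WT libraries held 12.94, 12.88, 12.90 and 13.08 and *Cpeb4*-/- libraries 12.54, 12.66, 12.80 and 12.61, without overlap (difference −0.30, standard error 0.07, limma adjusted p = 0.0409). At 6 hr the difference was −0.29 (standard error 0.08, adjusted p = 0.0294), with WT between 12.96 and 13.24 and *Cpeb4*-/- between 12.61 and 12.96, groups that touch without overlap (nearest libraries 12.9561 and 12.9552), and the exact permutation p was 0.0286 at both times. Without WT mouse 25 or 87 or *Cpeb4*-/- mouse 2, 3 or 62 the adjusted p at 3 hr was 0.0586 to 0.122, and without WT mouse 69, 87 or 88 or *Cpeb4*-/- mouse 2 or 62 that at 6 hr was 0.0562 to 0.087. The 6 hr rise over untreated cells came to 3.34 for WT and 3.04 for *Cpeb4*-/- (interaction adjusted p = 0.185, and 0.0349 with the replicate block).

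*Ccr1* (chr9:123962124-123968692), a receptor of CCL3 and CCL5, did not move early and rose late. WT libraries averaged 8.88 ± 0.10 (SD, n = 4) when untreated, 8.98 ± 0.12 after 3 hr and 9.96 ± 0.12 after 6 hr of LPS, a 2.11-fold rise from untreated cells (limma adjusted p = 8.41e-14). The genotypes overlapped at all 5 times, with differences between −0.17 and 0.18. Within mice the rise at 6 hr was 0.97 to 1.18 in WT and 1.22 to 1.37 in *Cpeb4*-/-, without overlap, and its difference of 0.22 did not pass the threshold across all genes (interaction adjusted p = 0.414). The 6 hr changes of *Ccr2*, *Ccrl2*, *Cx3cr1*, *C5ar1* and *Fpr1* did not overlap between the genotypes either.

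*Ccr7* (chr11:99144196-99155077), which guides mature dendritic cells and lymphocytes to lymph nodes, had rlog values in the low range, where the scale shrinks differences most. It went from 2.70, 2.71, 3.19 and 3.13 in untreated WT libraries to 4.46, 5.09, 5.20 and 5.31 at 6 hr, without overlap (change 2.08, standard error 0.23, limma adjusted p = 3.79e-10). Its rise at 1 hr, 0.69 with an adjusted p of 0.0165, had an adjusted p of 0.0596 without WT mouse 25 and 0.09 without WT mouse 69. The *Ccr7* difference at 3 hr was 0.56 (standard error 0.17, adjusted p = 0.0904), with WT between 4.40 and 5.19 and *Cpeb4*-/- between 5.03 and 5.37. Leaving out WT mouse 87, the 1 WT library above 5 at that time, gave an adjusted p of 0.023. The summed level of 6 dendritic cell markers rose alongside, from between 5.55 and 6.29 in untreated WT libraries to between 6.90 and 7.31 at 6 hr, and lay between 7.14 and 7.36 in WT and between 7.01 and 7.31 in *Cpeb4*-/- at 3 hr. Within this list *Zbtb46* differed by 1.095 at 3 hr, in the direction of *Ccr7*, and *Xcr1*, which carries most of the sum, by −0.38. Their part in the *Ccr7* values was not tested.

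*C5ar1*, *Fpr1* and *Fpr2* encode receptors of the complement fragment C5a and of formyl peptides and lipid or protein ligands of inflammation. *C5ar1* (chr7:16246743-16259540) rose within 1 hr and returned. WT libraries held 14.28, 14.27, 14.24 and 14.21 at 0 hr and 15.09, 15.12, 14.93 and 15.00 at 1 hr, without overlap (change 0.78, standard error 0.04, limma adjusted p = 3.87e-17). The change was 0.05 at 6 hr and 0.08 at 9 hr and neither passed the threshold, and under quantile normalization these values became −0.86 and −0.52, each past it.

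*C5ar1* was lower in *Cpeb4*-/- at 3 hr, and its difference of −0.11 at 1 hr did not pass the threshold (groups overlapping, limma adjusted p = 0.184). The 3 hr libraries held 14.93, 14.95, 14.85 and 15.00 in WT and 14.67, 14.75, 14.74 and 14.73 in *Cpeb4*-/-, without overlap, and differed by −0.21 (standard error 0.05, limma adjusted p = 0.0442, exact p = 0.0286). Without WT mouse 25 or 69 or *Cpeb4*-/- mouse 2, 3, 55 or 62 the adjusted p was 0.0775 to 0.126, and under quantile normalization it was 0.242. The untreated groups did not overlap either (14.21 to 14.28 against 14.08 to 14.16, adjusted p = 0.169), and at 6 hr the means were reversed by 0.09 with overlap. Within mice its change over 6 hr averaged 0.05 ± 0.08 (SD, n = 4) for WT and 0.26 ± 0.10 for *Cpeb4*-/- (interaction adjusted p = 0.0537, and 0.0225 with the replicate block). The summed macrophage markers given above, though not each of them, were lower in *Cpeb4*-/- at the same times, and their part in the *C5ar1* difference was not tested.

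*Fpr1* (chr17:17876471-17883940, minus strand) and *Fpr2* (chr17:17887824-17893952, plus strand) stand head to head with 3883 bases between them. *Fpr1* in WT went from 7.01, 7.08, 7.29 and 7.17 at 0 hr to 11.38, 11.42, 11.47 and 11.43 at 9 hr, a 19.5-fold rise (change 4.29, standard error 0.08, limma adjusted p = 1.04e-32). *Fpr2* went from 8.78, 9.04, 9.09 and 8.92 to 12.82, 12.93, 12.82 and 12.91 at 6 hr, a 15.0-fold rise (change 3.91, standard error 0.08, limma adjusted p = 8.11e-32). No WT library of *Fpr1* at one time overlapped those of the next, and for *Fpr2* overlap was limited to 6 and 9 hr. Across the 40 libraries, which share mice and times, the genes correlated at r of 0.97. The summed level of 9 neutrophil markers rose over the same hours, from between 10.70 and 11.02 in untreated WT libraries to between 13.20 and 13.46 at 6 hr, with *Ly6g*, *Mpo*, *Elane* and *Cxcr2* under the filter throughout. This sum was close to *Csf3r* alone (at most 13.43), while *S100a8*, *S100a9* and *Ngp* did not exceed 7.70, 6.01 and 4.59. The part of these markers in the *Fpr1* and *Fpr2* values was not tested.

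*Fpr2* had a lower mean in *Cpeb4*-/- at each of the 5 times, before and after LPS. The times share the same mice, so they are not independent observations. At 6 hr WT libraries lay between 12.82 and 12.93 and *Cpeb4*-/- libraries held 12.71, 12.60, 12.66 and 12.67, without overlap (difference −0.21, standard error 0.04, limma adjusted p = 0.00606). At 9 hr WT held 12.69, 12.84, 12.71 and 12.63 and *Cpeb4*-/- 12.53, 12.25, 12.35 and 12.27. All *Cpeb4*-/- libraries were again lower, by 0.37 on average (difference −0.37, standard error 0.07, 1.29-fold lower, limma adjusted p = 0.0132, exact p = 0.0286), and this passed the threshold under all 16 alternatives.

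At 1 hr the *Fpr2* difference was −0.29 (standard error 0.06, limma adjusted p = 0.045), and leaving out WT mouse 25, 87 or 88 or *Cpeb4*-/- mouse 3, 55 or 62 moved the adjusted p to 0.0502 to 0.155. At 0 and 3 hr it was −0.27 and −0.31, with single overlapping libraries and adjusted p of 0.126 and 0.0967. In the fit of all 40 libraries with the replicate block the adjusted p at 0, 3 and 6 hr came to 0.0461, 0.00779 and 0.0593, when 3.16%, 10.6% and 16.3% of all genes passed. Its change from untreated cells differed between the genotypes by −0.10 at most (interaction adjusted p = 0.85 at 9 hr). *Fpr2* shares 403 of 1084 stretches of 50 bases with other transcripts, 368 of them with *Gm5966* and 77 with *Fpr3*, whose exons overlap it on the same strand, so reads could be split or dropped in counting. *Fpr3* stayed at an rlog of at most 1.63 in every library.

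*Fpr1*, of which 1 of 1275 such stretches is shared, was lower in untreated *Cpeb4*-/- cells (6.88, 6.78, 6.96 and 6.81) than in WT without overlap, by −0.28, which did not pass the threshold (standard error 0.08, limma adjusted p = 0.117, and 0.039 with the replicate block). At 6 hr the mean difference was 0.00 (standard error 0.05, WT 11.16 to 11.24, *Cpeb4*-/- 11.11 to 11.31). At 9 hr the *Cpeb4*-/- libraries held 10.95, 11.30, 11.25 and 11.21, again below all WT libraries, by −0.25 (adjusted p = 0.0619). The adjusted p at 9 hr was 0.00939 without *Cpeb4*-/- mouse 2, the lowest of them, in a fit that called 4575 genes in place of 1029. With the replicate block it was 0.0241, in a test that 18.1% of all genes passed.

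The upstream sequence of 8 of the 9 receptors was matched in RefSeq (GRCm38.p6). The 250 bases before the start are shown for the receptors with the largest rises and falls, 5′ to 3′ on the gene's strand, with matches in capitals. Both strands were searched for the NF-κB and ISRE consensus, for AP-1 as TGANTCA and for the core of the HIF site as ACGTG or GCGTG, and the sense strand for TATAAA.
*Ccrl2*, chr9:111057519-111057768: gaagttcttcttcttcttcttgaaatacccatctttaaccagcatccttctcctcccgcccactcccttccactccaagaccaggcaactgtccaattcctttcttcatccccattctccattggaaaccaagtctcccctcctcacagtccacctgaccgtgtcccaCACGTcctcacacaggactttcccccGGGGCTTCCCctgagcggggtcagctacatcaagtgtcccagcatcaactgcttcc
*Cxcr4*, chr1:128592300-128592549: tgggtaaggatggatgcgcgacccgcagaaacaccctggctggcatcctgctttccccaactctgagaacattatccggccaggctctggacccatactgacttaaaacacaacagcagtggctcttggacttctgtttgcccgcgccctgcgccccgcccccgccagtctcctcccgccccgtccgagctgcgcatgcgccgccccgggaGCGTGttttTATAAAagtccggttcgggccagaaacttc
*Fpr1*, chr17:17883940-17884189: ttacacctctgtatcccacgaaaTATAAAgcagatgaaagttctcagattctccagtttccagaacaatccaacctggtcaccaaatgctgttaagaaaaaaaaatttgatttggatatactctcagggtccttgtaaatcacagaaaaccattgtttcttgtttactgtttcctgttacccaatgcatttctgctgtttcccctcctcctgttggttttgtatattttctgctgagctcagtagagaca
*Fpr2*, chr17:17887574-17887823: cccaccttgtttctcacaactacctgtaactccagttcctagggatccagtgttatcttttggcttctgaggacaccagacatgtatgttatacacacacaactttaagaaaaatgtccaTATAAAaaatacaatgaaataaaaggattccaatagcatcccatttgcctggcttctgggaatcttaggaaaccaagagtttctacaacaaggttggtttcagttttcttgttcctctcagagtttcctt
The window shown for *Ccrl2*, 1 of 3 listed for this gene, held an NF-κB match from base −56 to −47, as 7.25% of 32851 promoters do, and the other two held none. A HIF core, present in 38.6% of promoters, lay in all 3 *Ccrl2* windows (from −82 in the one shown), in *Cxcr4* from −39 to −35 and in *Ccr1* from −25. The other *Ccrl2* windows (chr9:111057271-111057520 and chr9:111057245-111057494) overlap each other and share a HIF core, at −99 and −125 of their respective starts. A TATA motif, present in 7.59%, lay in *Cxcr4* from −30 to −25, in *Fpr1* from −227 and in *Fpr2* from −130. *Ccr1* held an NF-κB match from −74 to −65. No window of the 8 receptors held an ISRE or AP-1 match, which 2.98% and 6.75% of promoters hold. These matches are descriptions of the letters and not of binding.

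The genes with the most similar pattern over the 40 libraries, among those whose mean rlog reached 5, were *Fam214a* (Pearson r = 0.98) and *Arl4c* (0.98) for *Cxcr4* and *Gpr183* and *S1pr1* (0.95 each) for *Cx3cr1*. For *Ccrl2* they were *Pde4b* (0.99) and *Rnf19b* (0.98), for *Fpr1* *Agtrap* and *Aoah* (0.995 each) and for *Fpr2* *Ccl5* (0.996) and *Gbp2* (0.993). *C5ar1* was closest to *Pvr* and *Rcan1* (0.95 each), *Ccr1* to *Sqor* and *Bst1* (0.96 each), *Ccr2* to *Klf4* (0.94) and *Efr3b* (0.92) and *Ccr7* to *Ccl24* (0.93) and *Cct8* (0.92). Libraries of a mouse and of a time are not independent, so these values describe the likeness of time courses.

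Of 32 other chemokine and chemoattractant receptors, 12 to 14 were expressed above the filter at each time. At 6 hr of LPS in WT 6 of 13 had risen and 5 had fallen, beside 39.7% and 40.2% of all genes. In *Cpeb4*-/- cells 1 of 13 differed at 1 hr, 3 of 12 at 6 hr and 2 of 14 at 9 hr, and none at 0 and 3 hr. In order of time, 1.31%, 1.91%, 3.68%, 16.3% and 7.91% of all genes differed. *Cmklr1*, the signalling receptor of chemerin, was higher in *Cpeb4*-/- by 0.54 at 1 hr (standard error 0.11), 0.53 at 6 hr (0.08) and 0.55 at 9 hr (0.11, limma adjusted p = 0.0186), and *Ltb4r1*, a leukotriene B4 receptor, was higher by 0.70 at 9 hr. *C3ar1*, the receptor of the complement fragment C3a, was lower by 0.41 at 6 hr (difference −0.41, adjusted p = 0.000626), and *Xcr1*, also a dendritic cell marker, by 0.49 (difference −0.49, adjusted p = 0.0124).

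Nearly all ligands of the receptors rose after LPS. At 6 hr 12 of the 13 expressed ligands (of 18 listed) had risen in WT and none had fallen, beside 39.7% and 40.2% of all genes. Their median change was 3.32, and that of all tested genes was −0.02. At 9 hr 11 had risen and *Anxa1*, whose protein is an FPR2 ligand, had fallen (change −0.33), beside 37.0% and 36.6% of all genes. In *Cpeb4*-/- cells none was higher after LPS and 2 were lower at 3 hr, 2 at 6 hr and 3 at 9 hr, beside 3.68%, 16.3% and 7.91% of all genes called, so the share at 6 hr was near that of all genes. *Anxa1*, named after its values were seen, was higher by 0.34 in untreated cells. The CCR2 ligands *Ccl7* and *Ccl2* differed by −0.74 and −0.53 at 3 hr (limma adjusted p = 0.0385 and 0.0447), *Ccl12* by −0.64 and *Ccl8* by −0.48 at 6 hr (0.00474 and 0.0226). *Ccl3*, a CCR1 ligand, and *Ccl4* differed by −0.60 and −0.62 at 9 hr (0.0139 and 0.00614). The median difference of the 13 ligands at 9 hr was −0.19, against 0.00 over all tested genes.

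All 31 listed genes of receptor signalling were expressed. None differed between the genotypes in untreated cells, when 1.31% of all genes did. At 1 hr 1 was higher and 1 lower in *Cpeb4*-/-, and at 3 hr none was higher and 4 were lower, beside 1.91% and 3.68% of all genes called. At 6 hr 4 were higher and 9 lower in *Cpeb4*-/-, with a median difference of −0.06 against −0.02 over all genes. At 9 hr 2 were higher and 4 lower, and the shares of all genes called at 6 and 9 hr were 16.3% and 7.91%. *Rgs2* and *Rgs1*, which switch off G proteins, differed by −0.61 and −0.45 at 6 hr (limma adjusted p = 0.00404 and 0.0474), and *Prex1*, a Rac exchange factor downstream of Gβγ, by −0.52 (6.73e-05). *Grk5* and *Arrb1*, a receptor kinase and an arrestin that desensitise receptors, were higher by 0.47 at 9 hr and 0.37 at 6 hr, and the kinase *Grk3* was higher by 0.73 at 1 hr. The arrestin *Arrb2* differed by −0.22 at 3 hr (limma adjusted p = 0.0465). *Grk3* differed by −0.16 at 6 hr and −0.12 at 9 hr, neither past the threshold.

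**Figure D4:**
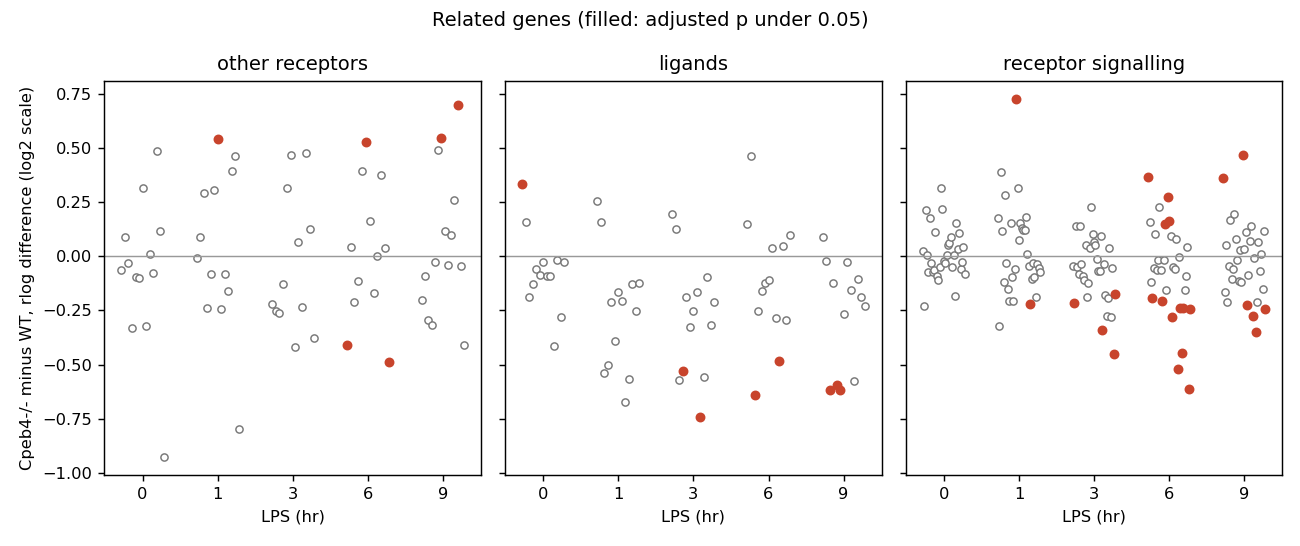
Difference in rlog (*Cpeb4*-/- minus WT, vertical axis, log2 scale) of each expressed gene of the 3 lists against hours of LPS, with filled points at an adjusted p under 0.05. Filled points of the ligands lie under 0 after LPS, down to −0.74, while those of the other receptors and of receptor signalling lie on both sides of 0.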

How the data were processed

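BMDM libraries of 8 mice at 5 times were analysed. Per the labels, the submitters' processing notes name STAR 2.3.0e, mm10, featureCounts and DESeq2; the authors deposited rlog values, a log2 scale after their library-size correction. The table carries no counts, so depth is unknown here and precision rests on the 4 libraries per group. No value column was left unused (0).

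WT and *Cpeb4*-/- libraries of a time were compared with limma 3.58.1 in R 4.3.3 (trend, mean rlog of at least log2 of 5, 13008 to 13118 genes, Benjamini-Hochberg adjustment, threshold 0.05). LPS responses and interactions came from 1 fit of 10 groups. Exact permutation tests were two-sided over 4 against 4 libraries. On simulated differences at 6 hr, 99 of 100 genes shifted by 1 and 92 of 100 shifted by 0.5 were recovered. There were 13 false calls among 13039 genes. Recovery of smaller differences, such as −0.29 for *Ccrl2* and −0.21 for *Fpr2* at 6 hr, was not tested. Recovery at the other times was not tested either, and the median standard error over all genes was 0.0675 at 6 hr and 0.0911 at 1 hr. All 9 receptors are described, each with its 2 most correlated genes, and up to 6 past-threshold genes per related list, plus *Anxa1* and *Arrb2*, named after their values were seen. The receptors and lists were chosen with earlier results of these data known.

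Libraries of the same mouse pair the times, per the labels. After removal of group means their median correlation was 0.29 (above 0.1 for 68 of the 80 pairs, minimum −0.19), and that of other mice −0.09. The mouse was a replicate block in alternative fits. For genotype differences the block was a shared correlation among libraries of a mouse. For LPS responses and interactions it was a separate term for each mouse. Other alternatives changed the filter, the variance prior, the batch term, the scaling (quantile) or left out a mouse. Positions and 3′ UTRs are from GENCODE M21 (mm10), and a 3′ UTR that overlaps coding bases of its gene was passed over. Certain items are not reported here.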

Additional observations from a re-analysis of the deposited data

Results flagged for a closer look

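The response of *Cxcr4* to 9 hr of LPS differed between the genotypes by a test of the difference itself. The mean change was −3.78 in WT and −3.15 in *Cpeb4*-/- mice, a difference of 0.63 with a limma adjusted p of 0.0198. It passed the threshold under 7 of 12 alternatives. Leaving out any of 5 mice moved the adjusted p to between 0.0565 and 0.104.

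Among the 90 groups of 4 libraries, 2 held a library that stood apart from the other three by Dixon's criterion, where chance flags about 1 group in 20. The library of WT mouse 69 at 1 hr held *Cx3cr1* at 11.76, and the others lay between 11.30 and 11.33. WT mouse 69 at 3 hr held *Fpr1* at 9.24, and the others lay between 8.98 and 9.01.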

How the results depend on the processing

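Over 1698 values of the receptors under the alternatives, 1606 kept their side of the threshold and direction or moved by less than the replicate spread, 55 lost and 23 gained the threshold, 12 single-batch values moved by more than the spread and 2 reversed. Those 2 were the *C5ar1* changes in WT under quantile normalization, −0.86 at 6 hr and −0.52 at 9 hr, and the cause was not tested. Quantile normalization moved the median of all genes by at most −0.07. A further 54 values that did not pass the threshold changed sign. The number of receptors called between genotypes was 0 at 0 hr and became 1 with all 40 libraries in one fit and 2 with the replicate block. At 1 hr it was 1 and became 0 without the filter and without the trend. At 3 hr it was 3 and became 0 without the filter, without the trend and with batch as a covariate and 1 under quantile normalization. At 6 hr it was 2 and became 1 without the filter, without the trend, in one fit, with the replicate block and under quantile normalization. For the interaction the count at 6 hr was 0 and became 1 with the stricter filter (mean rlog of 5) and under quantile normalization and 4 with the replicate block, and the count at 9 hr went from 1 to 2 with the replicate block. Leaving out 1 mouse gave 0 to 1 receptors at 1 hr, 0 to 4 at 3 hr, 1 to 2 at 6 hr and 2 to 4 at 9 hr, and 0 to 1 for the interaction at 9 hr. The replicate block changed no call of the receptors other than these and those given beside the results. Counts over all genes moved more. Between genotypes they were 171, 251, 481, 2129 and 1029 in order of time and became 50, 53, 167, 1288 and 582 without the filter. In one fit of 40 libraries they were 326, 4182, 1311 and 2280 at 0, 1, 3 and 9 hr (414, 4323, 1393 and 2378 with the replicate block). With batch as a covariate they were 146, 194 and 1781 at 1, 3 and 9 hr, and without the trend 230 at 3 hr. Leaving out 1 mouse gave 44 to 163, 40 to 2440, 76 to 2584, 1347 to 2331 and 387 to 4575, with the highest counts at 1, 3 and 9 hr without WT mouse 69, WT mouse 88 and *Cpeb4*-/- mouse 2. Interaction counts of 27, 385 and 231 at 3, 6 and 9 hr became 72, 1032 and 654 with the replicate block, 385 became 227 under quantile normalization, and the 1 gene at 1 hr became 8 without the filter and 0 with the stricter one. The stricter filter removed *Ccr7* from every comparison other than the genotypes at 6 hr.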
